A study of Cricetulus griseus with 16 samples.

Results

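Prolonged mild heat was the exposure of CHO cells to 40 °C for 6 h, compared here with cells kept at 37 °C. Its members were chosen by the treatment named in the sample labels: 4 libraries at 40 °C, 6 h (replicates A to D) and 3 at 37 °C (replicates A, B and C), 7 of the 16 libraries of the series. CHO is an established cell line from Chinese hamster ovary, and every group was the same line, seeded on plates the day before the heat treatment. The labels give no time for the 37 °C libraries, and when these were collected is not given in the sources used here. The part of time in culture in the differences below was not tested. Each group had 4 biological repeats, though whether these came from separate passages is not given in the sources used here, so p-values measure the spread between these cultures. The remaining groups, 4 libraries at 40 °C, 1 h and 4 at 42.5 °C, 1 h, were used to test whether a change at 40 °C, 6 h differed from theirs. They also entered the alternative of 1 fit over all groups. The remaining control library, replicate D, was not a member, and its values are given separately where they matter. The study set aside a control library that was unlike the rest of its group but does not name it in its text, so that this was replicate D is taken from the rule for members.

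Heat unfolds proteins in the cytosol, where heat shock factors raise the transcription of chaperones such as the HSP70, HSP90 and small heat shock proteins. In the endoplasmic reticulum (ER), sensors of unfolded protein raise a separate group of chaperones and disulfide isomerases, while kinases of eIF2α slow translation and favour the transcription factor ATF4. Fever-range heat is known for inducing heat shock proteins less than a short severe heat shock does, and RNA-binding proteins and splicing factors also respond to temperature.

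The total was 13997367, 13281003 and 11346465 counts in 37 °C replicates A, B and C, and 11153350, 12700249, 12503205 and 12643725 counts in 40 °C, 6 h replicates A to D. A floor of 3 counts corresponded to 0.214 to 0.269 CPM (counts scaled to a common library size) in these libraries and covers counting error only. Levels below are CPM scaled by TMM, the normalization of edgeR for composition. The heated libraries were not equally far from the controls. The chi-square per degree of freedom between pairs of libraries was 10.77 to 11.24 for heated replicate A against the 3 controls, 26.57 to 30.15 for replicate B, 16.98 to 20.71 for replicate C and 15.02 to 18.86 for replicate D. Among the heated libraries it was 3.1 to 7.94 and among the 3 controls 2.76 to 4.84, whereas 37 °C replicate D stood 41.3 to 52.38 away from each of the other 7. Mitochondrially encoded genes held 3.06%, 2.23% and 2.31% of the counts in the controls, 2.69%, 3.54%, 3.25% and 3.08% in the heated libraries and 3.31% in 37 °C replicate D.

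Differentially expressed genes (DEGs) are those whose Benjamini-Hochberg adjusted p in edgeR's quasi-likelihood test was under 0.05 and whose level changed at least 1.5-fold in either direction. This held for 326 of 10499 genes (3.11%), of which 152 were higher (1.45%) and 174 lower (1.66%) after 6 h. By adjusted p alone, 1540 genes were higher (14.7%) and 1551 lower (14.8%), so most shifts were smaller than 1.5-fold. The counts of members called in the gene lists below are to be read beside these shares over all genes. The median log2 fold change over all genes tested was 0.00. Of the DEGs, 39 were at least 2-fold higher and 28 at least 2-fold lower, and 5 passed a fold of 4. Among all genes tested, the 4 heated libraries lay above the 3 controls for 1955 (18.6%) and below them for 1848 (17.6%), and among DEGs this was so for 144 of the 152 higher and 165 of the 174 lower genes. Low levels were common, since 58 higher and 66 lower DEGs had a mean under 5 CPM in both groups. In 37 °C replicate D, 188 of the 326 DEGs (57.7%) lay beyond the other 3 controls on the side of the heated libraries and 47 (14.4%) on the opposite side. Over all genes tested these were 4958 (47.2%) and 3846 (36.6%), and the DEGs were called against the other 3 controls. With all 4 controls 218 genes were called, 187 of them among the 326. Without 40 °C, 6 h replicate B the number was 248. The stricter glmTreat, which tests against a fold of 1.5, called 31 genes, and of the 95 DEGs covered by the naming rule it kept 21. That loss is not repeated below. With the replicate letter as a block, 333 genes were called, and of the genes named below Acsl6 (-0.52), Adm (0.48), Atf3 (-0.56), Nab2 (-0.56), Vcam1 (-0.59) and Xbp1 (0.55) lost their call. By the Wald test of DESeq2, Acsl6, Adm, Aldh18a1, Atf3, Cfap45, Dnajb14, Nr4a3, Tmed6, Vcam1 and Zfp580 lost theirs, in 1 fit over all groups Acsl6, Atf3, Dnajb1, Nab2 and Pygm, with DESeq2 size factors Adm, and with at least 10 counts in every library Nab2. The paragraphs on these genes give the losses on leaving out a library or adding replicate D.

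**Figure D1:**
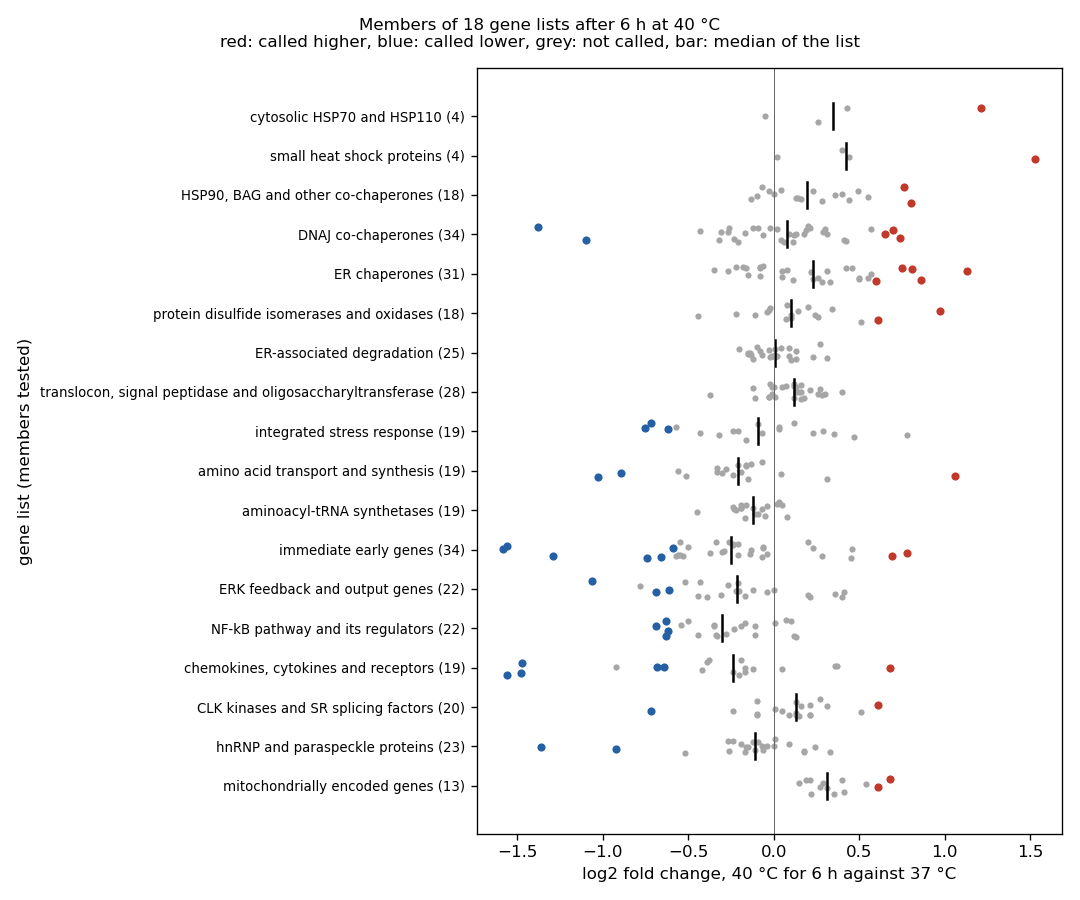
Log2 fold change (x axis, 40 °C for 6 h against 37 °C) of each tested member of 18 gene lists (y axis, members tested in brackets), with DEGs in red (higher) and blue (lower), other genes in grey and the median of each list as a black bar. ER chaperones reach up to 1.13 (Hspa5), while immediate early genes reach down to -1.58 (Egr1).

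Hspa5, Hsp90b1, Serpinh1, Manf and Sdf2l1, which encode proteins that fold or hold others in the ER, were higher after 6 h. They were the 5 DEGs among 31 ER chaperones tested (16.1%, against 3.11% of all genes tested). By adjusted p alone 17 were higher and 3 lower, where the shares over all genes were 14.7% and 14.8%. The median log2 fold change was 0.23, against 0.00 over all genes. Hspa5 (ENSCGRG00001013777), which encodes BiP, the main HSP70 of the ER, was at 2060, 2020 and 2157 CPM in the controls and at 3823, 5822, 4601 and 3942 CPM in the heated libraries. Replicate B was the highest and the groups did not overlap. The level of Hsp90b1 (ENSCGRG00001023543) (GRP94, the HSP90 of the ER) was 2256, 2228 and 2395 CPM at 37 °C and 3389, 4519, 3811 and 3791 CPM after 6 h. Its lowest heated library was replicate A, still above each control. Serpinh1 (ENSCGRG00001024167), the collagen chaperone HSP47, rose from 562 ± 18.6 CPM (SD, n = 3) to 1020 ± 170 (SD, n = 4), which is 0.86 on the log2 scale (SE 0.09, adjusted p = 3.98e-06). Manf (ENSCGRG00001021555), a secreted protein of the ER, rose from 124 ± 5.04 to 218 ± 32.3 CPM with a log2 fold change of 0.81, and Sdf2l1 (ENSCGRG00001023473), a partner of BiP, from 92 ± 9.1 to 140 ± 25.8 CPM with 0.60. Replicate B was the highest of the heated libraries for Hspa5, Hsp90b1, Serpinh1, Manf and Sdf2l1. Sdf2l1 fell below the fold of 1.5 without heated replicate B (log2 fold change 0.47), without 37 °C replicate C (0.53) and with all 4 controls (0.53).

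Among 18 protein disulfide isomerases and oxidases, which form disulfide bonds in secretory proteins, 2 were higher DEGs and 0 lower, with a median of 0.10. That is 11.1% called, against 3.11% of all genes tested, and by adjusted p alone 8 were higher and 2 lower. Pdia4 (ENSCGRG00001005477) was at 295, 293 and 308 CPM in the controls and at 512, 717, 587 and 525 CPM in the heated libraries. These groups were far apart relative to the spread among controls, and the log2 change was 0.97 (SE 0.09, adjusted p = 1.09e-06), called in all 17 fits. Pdia3 (ENSCGRG00001008721), which works on glycoproteins, rose from 666 ± 40.4 to 1020 ± 94.9 CPM with a log2 fold change of 0.61. It dropped below the fold threshold without heated replicate B (0.57) and with all 4 controls (0.48), where replicate D stood at 924 CPM. The sensors and transcription factors of the unfolded protein response held 1 higher and 0 lower DEGs among 10 (10%, against 3.11% of all genes tested). By adjusted p alone 1 was higher and 2 were lower, with a median of -0.11. The 2 lower ones, chosen after their values were seen, were the sensor gene Atf6 (log2 fold change -0.33, adjusted p = 3.56e-04) and Wfs1 (-0.23, adjusted p = 0.0213). The higher DEG was Xbp1 (ENSCGRG00001019438), the transcription factor downstream of the ER sensor IRE1, at 38, 31 and 36.1 CPM in the controls and 44.4, 52.7, 57.2 and 58 CPM after 6 h. Its libraries did not overlap between groups, at a log2 change of 0.60 (SE 0.09, adjusted p = 1.16e-04). The call was lost, by fold, without heated replicate C or D (0.56 each), without 37 °C replicate B (0.52) and with all 4 controls (0.58). Ern1 (ENSCGRG00001003211), which encodes IRE1 itself, was at 18.3, 16.6 and 16.2 CPM in the controls and 17.8, 17.3, 17.2 and 16.4 CPM after 6 h, with overlapping groups and a log2 fold change of 0.00 (SE 0.09). In 37 °C replicate D it stood at 6.85 CPM.

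Genes of ER-associated degradation, protein entry into the ER and ER to Golgi transport held 0 or 1 DEGs a list, at most 2.86%, against 3.11% over all genes tested. Of 25 genes of ER-associated degradation, edgeR called 0 and DESeq2 0, with 3 higher and 4 lower by adjusted p alone, 4 higher and 5 lower at an unadjusted p under 0.05 and a median of 0.01. Of 28 genes of the translocon, signal peptidase and oligosaccharyltransferase, edgeR and DESeq2 called 0 at the fold of 1.5, with a median of 0.12. By adjusted p alone, however, 10 were higher and 2 lower, where the shares over all genes were 14.7% and 14.8%. At an unadjusted p under 0.05 these counts were 14 and 2. In ER to Golgi transport 1 of 35 genes was a DEG, Tmed6 (ENSCGRG00001016076), at 0.0702 to 0.584 CPM in the controls and 0.702 to 1.5 CPM after 6 h. With as few as 1 count in a library, it could be tested in 12 of 17 fits and was called in 9, not by DESeq2 and not without 37 °C replicate A (log2 fold change 0.93). The filter on low counts removed it with all 4 controls and without heated replicate A, B or C.

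The rises of Hspa5 and Pdia4 were larger after 6 h than in either 1 h group. Between 40 °C, 6 h and 40 °C, 1 h, 58 of the genes tested were higher (0.556%) and 76 lower (0.728%) at 6 h. Between 40 °C, 6 h and 42.5 °C, 1 h, 596 were higher (5.72%) and 264 lower (2.53%) at 6 h. These comparisons share the heated libraries with the comparison to 37 °C. Pdia4 had a mean of 323 CPM at 40 °C, 1 h and 341 CPM at 42.5 °C, 1 h, and the log2 difference of the 6 h group from them was 0.86 (adjusted p = 8.08e-06) and 0.79 (adjusted p = 4.97e-07). For Hspa5 these differences were 0.93 and 0.83. Hsp90b1 differed from 40 °C, 1 h by 0.60, and from 42.5 °C, 1 h by 0.51, which is under the fold of 1.5. Xbp1, at a mean of 43.8 CPM after 1 h at 40 °C and 35 CPM at 42.5 °C, differed by 0.28 and 0.61, of which the second was a call. Across the 31 ER chaperones, 2 were called higher at 6 h than at 40 °C, 1 h and 3 higher than at 42.5 °C, 1 h, with 0 lower in either. The median differences of the list were 0.11 and 0.02. Serpinh1, at a mean of 700 CPM at 40 °C, 1 h and 1319 CPM at 42.5 °C, 1 h, differed by 0.54 and -0.36, neither of them a call.

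**Figure D2:**
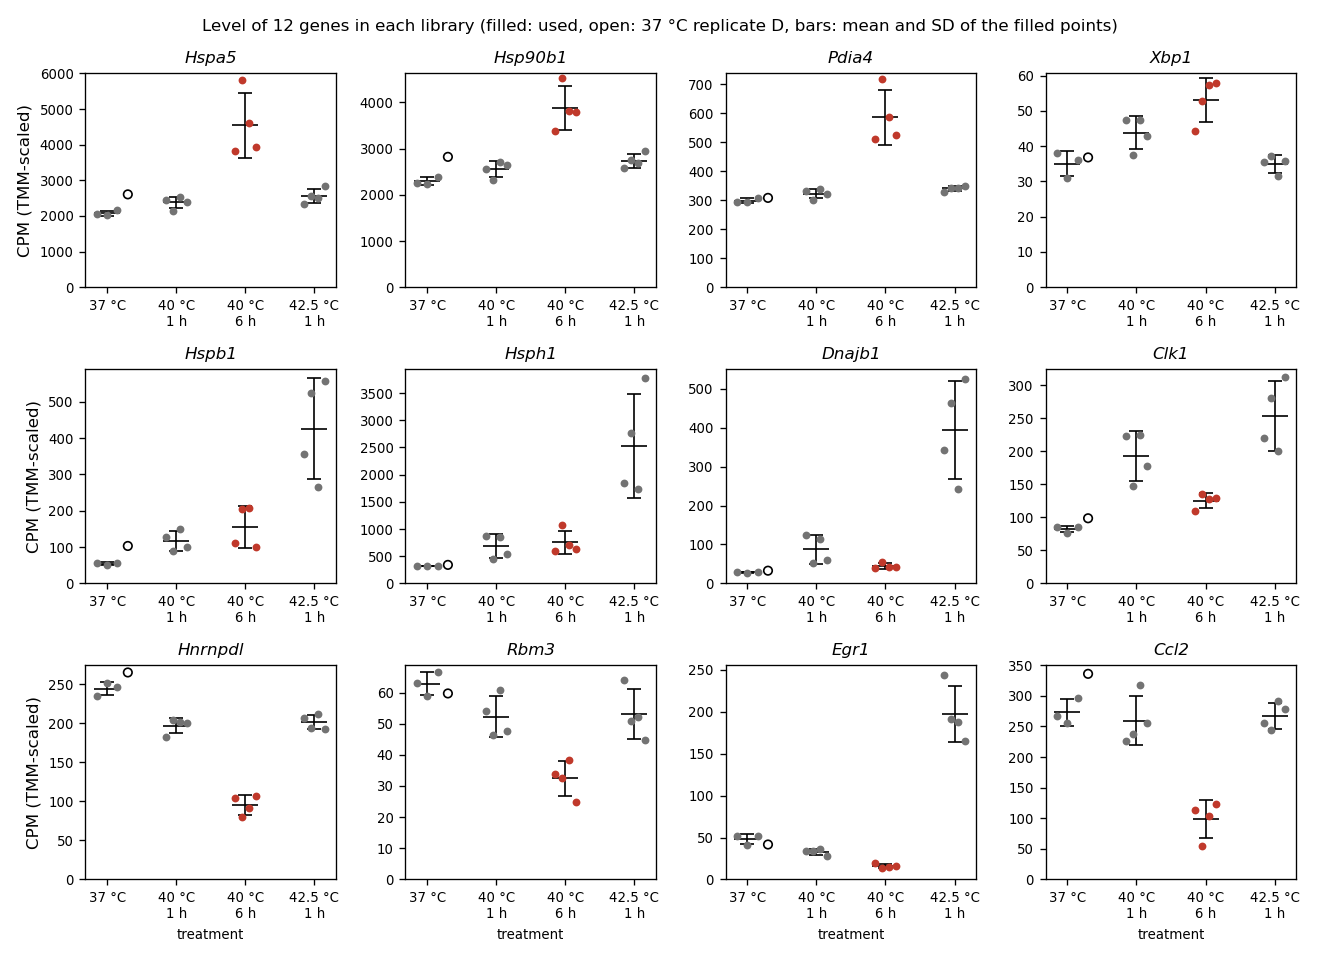
Level (y axis, CPM scaled by TMM, starting at 0) of 12 genes in each library at 37 °C, 40 °C for 1 h, 40 °C for 6 h (red) and 42.5 °C for 1 h (x axis), with the mean and SD of the filled points and 37 °C replicate D as an open circle. Hspa5 reaches 5822 CPM in the 6 h group, and Hnrnpdl there lies between 79.7 and 107 CPM.

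In the lists of heat shock proteins and their co-chaperones, Hspb1, Hsph1, Stip1, Ahsa2 and 3 DNAJ genes were higher DEGs. The small heat shock protein Hspb1 (ENSCGRG00001015556) was at 55.5, 49.5 and 56.8 CPM in the controls and at 111, 205, 207 and 99.8 CPM after 6 h. Heated replicates B and C were about level and above A and D, all 4 lay above the 3 controls, and 37 °C replicate D at 103 CPM lay within the heated range. Its log2 fold change was 1.53 (SE 0.20). Of the 4 tested members of its list 1 was a DEG (25%, against 3.11% of all genes tested), with 2 higher and 0 lower by adjusted p alone. Hsph1 (ENSCGRG00001021270), a nucleotide exchange factor for HSP70, was at 328, 323 and 320 CPM in the controls and at 597, 1070, 705 and 637 CPM in the heated libraries. Its heated libraries differed among themselves far more than the controls did, with replicate B highest. Hsph1 was the 1 DEG among 4 tested HSP70 and HSP110 genes (25%, against 3.11% of all genes tested), of which 3 were higher and 0 lower by adjusted p alone. Among 18 HSP90 co-chaperones, BAG proteins and related genes, 2 were higher DEGs and 0 lower (11.1%, against 3.11% of all genes tested). By adjusted p alone 10 were higher and 0 lower, with a median of 0.20. Stip1 (ENSCGRG00001018895), which bridges HSP70 and HSP90, rose from 493 ± 8.92 to 838 ± 150 CPM (log2 fold change 0.76, SE 0.09), and Ahsa2 (ENSCGRG00001004669) from 73.2 ± 2.99 to 128 ± 21.2 CPM (0.80, SE 0.09).

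Of 34 DNAJ co-chaperones, which hand substrates to HSP70, 3 were higher and 2 lower DEGs (14.7%, against 3.11% of all genes tested). By adjusted p alone 10 were higher and 7 lower, with a median of 0.07. The list shares Dnajb9, Dnajb11, Dnajc1, Dnajc3 and Dnajc10 with the ER chaperones. Of these shared genes, Dnajb9, Dnajb11 and Dnajc3 were higher by adjusted p alone and none was a DEG. Dnaja1 (ENSCGRG00001009232) was at 140, 128 and 126 CPM in the controls and 200, 263, 205 and 214 CPM after 6 h, without overlap, at a log2 change of 0.74 (SE 0.08, adjusted p = 4.48e-06). Dnajb1 (ENSCGRG00001013728) was at 28.9, 26.3 and 30.2 CPM in the controls and 39.9, 54.5, 41.7 and 42.5 CPM after 6 h. Its groups did not overlap, and the log2 fold change of 0.65 became 0.54 without heated replicate B, which ended the call, as did 1 fit over all groups (0.65). Dnajb14 (0.70), Dnajb3 (-1.38) and Dnajc30 (-1.10) stood below 3 CPM in each of these libraries. Dnajb14 lost its call without 37 °C replicate A (0.70) or B (0.57) and with all 4 controls (0.57). The heat shock factors, listed together with Hsbp1, held 0 DEGs among 4 by edgeR and by DESeq2. By adjusted p alone 1 was higher and 0 lower, and at an unadjusted p under 0.05 these counts were 2 and 0. Hsf1 (ENSCGRG00001014559), the main factor of the heat shock response, was at 110, 118 and 116 CPM in the controls and 132, 124, 118 and 122 CPM after 6 h. These values nearly met, and the log2 fold change of 0.11 did not pass the test (adjusted p = 0.121). The TRiC chaperonin (6 tested) and the mitochondrial chaperones and proteases (11 tested) held 0 DEGs by edgeR and DESeq2, with 1 higher and 0 lower, and 1 higher and 2 lower, by adjusted p alone, and 3 higher and 1 lower, and 3 higher and 3 lower, at an unadjusted p under 0.05.

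Dnajb1, Hsph1, Hspb1 and Dnajc30 were lower after 6 h than at 42.5 °C, 1 h. Dnajb1 had a mean of 87.5 CPM at 40 °C, 1 h and 394 CPM at 42.5 °C, 1 h, and the 6 h group was lower by a log2 difference of -0.97 (adjusted p = 0.00453) and -3.14 (adjusted p = 8.63e-10). Hsph1 did not pass the test between 6 h and 1 h at 40 °C (log2 difference 0.14, adjusted p = 0.648), and it was lower at 6 h than at 42.5 °C, 1 h by -1.74. Hspb1 showed differences of 0.42 (adjusted p = 0.155) and -1.44, and Dnajc30 differences of -0.38, not called, and -0.77. The deposited counts have no entry under the names Hspa1a, Hspa1b or Hspa8, and the 39 DEGs listed by identifier only were not given names. Of those with at least 5 CPM, the largest rises were in ENSCGRG00001001109, at 4, 4.01 and 2.59 CPM in the controls and 13.7, 27.2, 14.2 and 11.5 CPM after 6 h, and in ENSCGRG00001010711, at 1046, 922 and 1089 CPM and then 2386, 3698, 3100 and 2912 CPM. Both were higher in all 4 heated libraries than in the 3 controls. ENSCGRG00001011428 and ENSCGRG00001016131 had the largest falls of this kind, with log2 fold changes of -0.87 and -0.84. These 4 were chosen after their values were seen.

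Hnrnpdl, Pspc1 and Rbm3, which encode RNA-binding proteins, fell. Hnrnpdl (ENSCGRG00001010960), a heterogeneous nuclear ribonucleoprotein, was at 235, 251 and 247 CPM in the controls and at 104, 79.7, 91.2 and 107 CPM after 6 h. The heated libraries were all far below the lowest control, and the log2 change was -1.36 (SE 0.07, adjusted p = 5.60e-09). Pspc1 (ENSCGRG00001018368), a protein of nuclear paraspeckles, was at 67.1, 66.8 and 76.5 CPM in the controls and 40.1, 32, 36.9 and 39.8 CPM after 6 h, with a log2 fold change of -0.92. Both were called in all 17 fits and were the 2 lower DEGs among 23 hnRNP and paraspeckle genes, with 0 higher (8.7%, against 3.11% of all genes tested). By adjusted p alone 10 were lower and 4 higher, where the shares over all genes were 14.8% and 14.7%, and the median was -0.11. Of the 2 cold-inducible RNA-binding proteins, Rbm3 (ENSCGRG00001018909) was at 63, 59 and 66.6 CPM in the controls and 34, 32.5, 38.5 and 24.9 CPM after 6 h. Heated replicate D was the lowest, the groups did not overlap, and the log2 change was -0.96 (SE 0.10, adjusted p = 3.48e-06). CIRBP (ENSCGRG00001021763), the other one, was at 110, 108 and 106 CPM and then 102, 91.5, 77.1 and 84 CPM, a log2 fold change of -0.29 that passed by adjusted p alone (0.00535).

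Among 20 CLK kinases and SR splicing factors there was 1 DEG in each direction (10%, against 3.11% of all genes tested). By adjusted p alone 9 were higher and 2 lower, with a median of 0.13. Clk1 (ENSCGRG00001018410), a kinase that phosphorylates SR proteins, was at 85.4, 76.5 and 85.2 CPM in the controls and 109, 135, 128 and 130 CPM after 6 h. The groups did not overlap, but the log2 fold change of 0.61 fell under the threshold without heated replicate B (0.57), without 37 °C replicate B (0.56) and with all 4 controls (0.54). Srsf5 (ENSCGRG00001015339), an SR protein, went the other way, from 237 ± 15.5 to 144 ± 14.2 CPM (log2 fold change -0.72, SE 0.07). Hnrnpdl, Rbm3 and Pspc1 were lower at 6 h than in both 1 h groups, with log2 differences of -1.05, -0.69 and -0.81 from 40 °C, 1 h and -1.07, -0.70 and -0.89 from 42.5 °C, 1 h. Clk1 was lower at 6 h than at 1 h, by -0.62 from 40 °C and -1.01 from 42.5 °C, while Srsf5 had differences of -0.17 and -0.11 that did not pass the test.

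Atf4, Sesn2 and Atf3 of the integrated stress response and the transporter genes Slc7a11 and Slc6a9 fell. Of 19 genes of the integrated stress response, 3 were lower and 0 higher DEGs (15.8%, against 3.11% of all genes tested), with a median of -0.09. By adjusted p alone 6 were lower and 2 higher, where the shares over all genes were 14.8% and 14.7%. The number of higher DEGs was 1 without heated replicate A, B or D, with blocking on the replicate letter and without a filter, through Cebpb, a transcription factor gene chosen after its values were seen (log2 fold change 0.78, adjusted p = 0.0601). Atf4 (ENSCGRG00001018678) was at 185, 173 and 228 CPM in the controls and 113, 115, 112 and 126 CPM after 6 h. The heated libraries lay close together and below each control. Sesn2 (ENSCGRG00001020650), a stress-induced regulator of mTORC1, fell from 10.6 ± 1.51 to 6.41 ± 0.0484 CPM (log2 fold change -0.72, SE 0.12), and Atf3, a transcription factor induced by stress, from 4.25 ± 0.451 to 2.77 ± 0.699 CPM (-0.62, SE 0.19). Atf3 was called in 9 of 17 fits and lost its call without heated replicate C (-0.54) or D (-0.55), without 37 °C replicate B (-0.52) and with all 4 controls (-0.54). Ddit3 (ENSCGRG00001015590), which encodes CHOP, was at 5.05, 4.16 and 5.61 CPM in the controls and 6.53, 6.1, 7.34 and 7.33 CPM after 6 h, a log2 fold change of 0.47 below the fold threshold, with 9.17 CPM in 37 °C replicate D.

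Of 19 genes of amino acid transport and synthesis, 2 were lower and 1 higher DEGs (15.8%, against 3.11% of all genes tested). By adjusted p alone 10 were lower and 2 higher, with a median of -0.21. Slc7a11 (ENSCGRG00001013535), the cystine and glutamate exchanger, was at 5.05, 6.06 and 5.61 CPM in the controls and 3.35, 2.45, 2.21 and 2.96 CPM after 6 h, without overlap and with a log2 fold change of -1.03. The glycine transporter gene Slc6a9 (ENSCGRG00001019140) fell from 6.4 ± 0.725 to 3.45 ± 0.386 CPM (-0.89, SE 0.15). Aldh18a1, an enzyme of proline synthesis, was higher (1.06, SE 0.31) but stood at 0.684 ± 0.0492 and 1.43 ± 0.411 CPM, and the call was lost without heated replicate B (0.86) and without 37 °C replicate A (1.00). Of 19 aminoacyl-tRNA synthetases edgeR and DESeq2 called 0, with 8 lower and 0 higher by adjusted p alone, 12 lower and 0 higher at an unadjusted p under 0.05 and a median of -0.12. Against 42.5 °C, 1 h the 6 h group was lower in Atf4 by -0.82, Sesn2 by -0.78 and Atf3 by -2.08, whereas against 40 °C, 1 h none of these 3 was called, with differences of -0.50, -0.18 and -0.43.

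Immediate early genes are induced within minutes by growth factor signalling through ERK. Of 34 tested, 6 were lower and 2 higher DEGs (23.5%, against 3.11% of all genes tested), with a median of -0.25. By adjusted p alone 16 were lower and 6 higher, where the shares over all genes were 14.8% and 14.7%. Egr1 (ENSCGRG00001016318) was at 51.3, 41.3 and 51.4 CPM in the controls and 19.4, 14.2, 14.8 and 16.2 CPM after 6 h. The highest heated library held less than each control, at a log2 change of -1.58 (SE 0.10, adjusted p = 3.80e-08). Egr3 (ENSCGRG00001009879) was at 13.4, 13.4 and 12 CPM and then 4.41, 3.48, 4.81 and 4.83 CPM, and Egr2 at 2.04, 1.39 and 1.64 CPM and then 0.883, 0.396, 0.947 and 0.546 CPM. Their log2 fold changes were -1.56 and -1.29. Nab2 (ENSCGRG00001018114), a corepressor that EGR proteins induce, fell from 57 ± 1.19 to 38.1 ± 3.15 CPM (-0.59, SE 0.07), at the edge of the fold threshold. It was called in 8 of 17 fits and missed the fold without heated replicate B or D (-0.55 each), without 37 °C replicate A (-0.57) or C (-0.58) and with all 4 controls (-0.57). Maff (-0.74) and Ier2 (-0.66) were also lower, of which Ier2 was not called without 37 °C replicate C (-0.54) and Maff not with all 4 controls (-0.60). Fosl2, a FOS family member, rose from 42.9 ± 1.04 to 69.1 ± 8.52 CPM (0.69, SE 0.08). Nr4a3, at 1.14 ± 0.537 and 2 ± 0.315 CPM, was called higher (0.78) in 7 of 16 fits, and not without any 1 of the heated libraries (0.66 to 0.84), nor without 37 °C replicate A (0.76) or C (0.51), nor with all 4 controls (0.78).

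Among 22 feedback and output genes of ERK, 3 were lower and 0 higher DEGs (13.6%, against 3.11% of all genes tested), with a median of -0.22. By adjusted p alone 11 were lower and 3 higher, where the shares over all genes were 14.8% and 14.7%. The number of lower DEGs was 1 without 37 °C replicate A and 5 without 37 °C replicate B. Etv5 (ENSCGRG00001021130), an ETS transcription factor, was at 21.8, 20.8 and 21.9 CPM in the controls and 10.9, 8.95, 11 and 10.5 CPM after 6 h, with a log2 fold change of -1.06 in groups far apart. Dusp5 (ENSCGRG00001006024), a phosphatase of ERK, fell from 40.3 ± 5.41 to 26.5 ± 1.3 CPM (-0.61, SE 0.08) and Phlda1 from 18.9 ± 3.23 to 11.9 ± 1.23 CPM (-0.69, SE 0.12). Dusp5 missed the fold without heated replicate B (-0.58) or 37 °C replicate A (-0.50), and Phlda1 without 37 °C replicate A (-0.56) and, with 37 °C replicate D at 11.2 CPM, with all 4 controls (-0.53). Egr1 had a mean of 197 CPM at 42.5 °C, 1 h, and the 6 h group was lower than that group by -3.61 for Egr1, -3.35 for Egr2 and -2.09 for Egr3. From 40 °C, 1 h the difference was -1.04 for Egr1, -1.42 for Egr3 and -0.95 for Etv5, all called, and -0.56 for Egr2, not called. Of the 34 immediate early genes, 7 were called lower and 0 higher at 6 h than at 40 °C, 1 h, and 11 lower and 1 higher than at 42.5 °C, 1 h.

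Ccl2, Ccl7, Ccr7, Lif and Cxcl1 of the chemokines, cytokines and receptors were lower after 6 h. Of 19 chemokines, cytokines and receptors tested, 5 were lower and 1 higher DEGs (31.6%, against 3.11% of all genes tested), with a median of -0.24. By adjusted p alone 9 were lower and 2 higher, where the shares over all genes were 14.8% and 14.7%. Ccl2 (ENSCGRG00001010610), which attracts monocytes, was at 267, 255 and 297 CPM in the controls and 114, 54.6, 103 and 124 CPM after 6 h. Heated replicate B was the lowest and the groups did not overlap, at a log2 change of -1.47 (SE 0.16, adjusted p = 5.52e-06). Ccl7, a related chemokine, was at 4.84, 5.25 and 5.69 CPM and then 2.21, 1.19, 1.66 and 2.11 CPM, with -1.56, again without overlap. Ccr7 (ENSCGRG00001022917), a chemokine receptor known from lymphocytes and dendritic cells, was at 17.9, 15.2 and 14.3 CPM in the controls and 6.36, 4.91, 5.52 and 6.08 CPM after 6 h, with a log2 fold change of -1.48. Ccl2, Ccl7 and Ccr7 were called in all 17 fits. Lif, a cytokine of the IL-6 family, fell from 141 ± 13.5 to 88.4 ± 6.29 CPM (-0.68), but with all 4 controls its change was -0.56 and not called. Cxcl1 fell from 10.5 ± 0.824 to 6.73 ± 0.805 CPM (-0.64) and was not called without heated replicate C (-0.56). Cxcl12 was the higher DEG, at 3.69 ± 1.24 and 6.03 ± 0.884 CPM (0.68), and lost the call without 37 °C replicate C (0.46). Without 37 °C replicate A or B, 2 members of the list were called higher.

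Of 22 genes of the NF-κB pathway and its regulators, 4 were lower and 0 higher DEGs (18.2%, against 3.11% of all genes tested), with a median of -0.30. By adjusted p alone 14 were lower and 0 higher, where the shares over all genes were 14.8% and 14.7%. Icam1 (ENSCGRG00001015045), an adhesion molecule, was at 298, 311 and 312 CPM in the controls and 225, 153, 190 and 195 CPM after 6 h. Heated replicate B was the lowest and replicate A the highest, both below the controls, with a log2 fold change of -0.69. Birc3, a ubiquitin ligase of TNF receptor signalling, fell from 48 ± 2.19 to 31.2 ± 4.29 CPM (-0.63), and Traf1 from 6.41 ± 0.897 to 4.18 ± 0.889 CPM (-0.63). Vcam1, another adhesion molecule, was at 3.67 ± 0.924 and 2.37 ± 0.126 CPM (-0.62). Without heated replicate B the calls of Birc3 (-0.53) and Traf1 (-0.49) were lost, and without 37 °C replicate A that of Traf1 (-0.50). Vcam1 was called in 10 of 17 fits and was lost without heated replicate D (-0.58), without 37 °C replicate B (-0.56) or C (-0.46) and with all 4 controls (-0.61). Ccl2 was near the control level in both 1 h groups, at a mean of 260 CPM at 40 °C and 267 CPM at 42.5 °C, and the 6 h group was lower than they were by -1.40 and -1.43. Ccr7 differed by -1.38 from 40 °C, 1 h and by -0.58, just under the fold, from 42.5 °C, 1 h. Cxcl1 was higher at 6 h than at 42.5 °C, 1 h, where its mean was 1.4 CPM, by 2.24, and its difference from 40 °C, 1 h was -0.30, not called.

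All 13 mitochondrially encoded genes had log2 fold changes above 0, from 0.15 to 0.68 with a median of 0.31. Of these, 2 were DEGs (15.4%, against 3.11% of all genes tested). CYTB (ENSCGRG00001000035), of respiratory complex III, was at 1859, 1412 and 1524 CPM in the controls, 2089, 2930, 2703 and 2536 CPM after 6 h and 2338 CPM in 37 °C replicate D. ND4 (ENSCGRG00001000028), of complex I, was at 2344, 1705 and 1824 CPM, then 2473, 3609, 3011 and 2908 CPM, and 2672 CPM in replicate D. For both genes control A was near heated replicate A and replicate D lay within the heated range, as did its mitochondrial share of counts. The calls of CYTB (0.52) and ND4 (0.49) were lost with all 4 controls, and that of ND4 also without heated replicate B (0.51) and without 37 °C replicate B (0.53) or C (0.57). The part of RNA quality in these values was not tested, and in bulk RNA more transcripts per cell cannot be told apart from more such cells. Of 63 nuclear-encoded subunits of oxidative phosphorylation, edgeR and DESeq2 called 0, with 4 higher and 3 lower by adjusted p alone, 8 higher and 7 lower at an unadjusted p under 0.05 and a median of -0.01.

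Targets of YAP and SRF, which follow cell adhesion and the actin cytoskeleton, held 3 lower and 0 higher DEGs among 15, with a median of -0.11. That is 20% called, against 3.11% of all genes tested, and by adjusted p alone 6 were lower and 1 higher. Thbs1 (ENSCGRG00001002618), a matrix glycoprotein, was at 111, 104 and 107 CPM in the controls and 67.4, 45.1, 60.3 and 58.6 CPM after 6 h, with 58.7 CPM in 37 °C replicate D. All heated libraries were below controls A to C, and replicate D was among them. Ankrd1 fell from 47.1 ± 4.88 to 25.5 ± 2.94 CPM (-0.89) and Ccn1, a matricellular protein, from 65.2 ± 0.897 to 41.3 ± 3.47 CPM (-0.66). Of 21 other extracellular matrix genes, edgeR and DESeq2 called 0, with 3 higher and 4 lower by adjusted p alone and 4 higher and 4 lower at an unadjusted p under 0.05. That 0 did not hold in most fits with a library left out, since 2 were called higher without heated replicate A, C or D or 37 °C replicate B, and 1 without 37 °C replicate A. With the replicate letter as a block it was 2.

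Lists of lipid genes held 0 to 1 DEGs each (at most 4.35% of a list, against 3.11% over all genes tested), and the 3 DEGs of the list on glycogen, glycolysis and hypoxia were each lost in several fits. Of 21 genes of glycogen, glycolysis and hypoxia, 2 were higher and 1 lower DEGs (14.3%, against 3.11% of all genes tested), with a median of -0.17. By adjusted p alone 3 were higher and 10 lower, where the shares over all genes were 14.7% and 14.8%. The muscle and liver glycogen phosphorylases moved in opposite directions, Pygm from 2.24 ± 0.507 to 3.76 ± 0.887 CPM (0.72) and Pygl from 16.2 ± 0.854 to 10.6 ± 1.47 CPM (-0.61). Pygm lost its call without heated replicate B (0.54), without 37 °C replicate B (0.72) or C (0.58) and with all 4 controls (0.56), and Pygl without heated replicate B (-0.53) or C (-0.58) or 37 °C replicate C (-0.57). Adm, which encodes adrenomedullin, had overlapping groups (1.68 ± 0.573 and 2.72 ± 0.859 CPM, log2 fold change 0.73) and was called in 7 of 17 fits, with values of 0.51 to 0.78 in those lost on leaving out heated replicate B, C or D or 37 °C replicate A or B, and 0.50 with all 4 controls. Among lipid enzymes, Smpd3, a neutral sphingomyelinase, rose from 1.44 ± 0.36 to 2.72 ± 0.38 CPM (0.94, and 0.63 without a call with all 4 controls) and was the 1 DEG of 27 sphingolipid genes. Plcd3, a phospholipase C, rose from 12.3 ± 0.897 to 19.2 ± 2.11 CPM (0.63, and 0.56 without a call when heated replicate B was left out) and was the 1 DEG of 54 phospholipid genes, of which 2 were called higher without heated replicate C and 1 lower without heated replicate C or 37 °C replicate B. Acsl6, an acyl-CoA synthetase, was the 1 DEG of 23 fatty acid genes, at 3.31 ± 0.969 and 2.14 ± 0.475 CPM (-0.63), with overlapping groups and a call in 8 of 17 fits. Its value was -0.54 and -0.53 without heated replicates C and D and -0.47 and -0.53 without 37 °C replicates A and C, and -0.52 with all 4 controls, each time without a call, and without heated replicate A 2 members were called lower. Cholesterol synthesis and uptake held 0 DEGs among 29 by edgeR and DESeq2, with 7 higher and 3 lower by adjusted p alone and 10 higher and 3 lower at an unadjusted p under 0.05. Without 37 °C replicate A 1 was called higher and 1 lower, and without heated replicate A 1 lower. The desaturase gene Scd2 had a log2 fold change of 0.37, under the fold threshold, and Lpcat3, which remodels phospholipids, had -0.10 (adjusted p = 0.163). Aox1, an aldehyde oxidase, was the 1 DEG among 25 oxidative stress genes (4%, against 3.11% of all genes tested), at 5.53 ± 1.08 and 9.51 ± 1.62 CPM (0.77).

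In the circadian clock (18 tested, median -0.09), there was 1 DEG in each direction (11.1%, against 3.11% of all genes tested). Dbp rose from 3.27 ± 0.976 to 6.05 ± 0.162 CPM (0.90, with 0.70 and no call with all 4 controls), and 2 members were called higher without 37 °C replicate B. Bhlhe40, a repressor in the clock, fell from 5.4 ± 0.719 to 3.38 ± 0.465 CPM (-0.68) and lost its call without 37 °C replicate A (-0.57) and with all 4 controls (-0.55). Aen (ENSCGRG00001021559), a nuclease induced by p53, was the 1 DEG among 13 p53 targets (7.69%, against 3.11% of all genes tested). Its level was 69.6, 76 and 83.4 CPM in the controls and 39.8, 40.1, 39.6 and 36.7 CPM after 6 h. The heated libraries were close together and its log2 fold change was -0.97. Without 37 °C replicate A or B, 2 p53 targets were called lower. Zfand1 fell from 23 ± 2.39 to 12.8 ± 1.17 CPM (-0.84) and was the 1 DEG among 9 ZFAND and ubiquitin genes (11.1%, against 3.11% of all genes tested). Of 16 axoneme and cilium genes tested out of 62 found, Gas8 (-0.85) and Cfap45 (-0.61) were lower DEGs (12.5%, against 3.11% of all genes tested). Cfap45 was called in 10 of 17 fits and not without heated replicate A (-0.56) or B (-0.55), without 37 °C replicate A (-0.56) or C (-0.58) or with all 4 controls (-0.57).

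Zinc finger genes named Zfp or Znf, a large family of DNA-binding proteins, held 9 higher and 2 lower DEGs among 191 (5.76%, against 3.11% of all genes tested). By adjusted p alone 43 were higher and 9 lower, with a median of 0.15, where the shares over all genes were 14.7% and 14.8%. The number higher was 5 without 37 °C replicate C and 6 by DESeq2. Zfp605 (ENSCGRG00001025071) was at 10.9, 11.1 and 10.3 CPM in the controls and 18.7, 20, 19.6 and 20.9 CPM after 6 h, and Zfp423 (ENSCGRG00001023063) at 27.9, 25.4 and 25.4 CPM and then 39.4, 54.8, 46.2 and 44.8 CPM. Neither gene's groups overlapped, and the log2 fold changes were 0.88 and 0.82. Zfp787 (0.74), Zfp94 (0.66), Zfp426 (0.63) and Zfp341 (0.60) also rose, with calls that were lost in other fits. Zfp787 was not called with all 4 controls (0.52), nor Zfp94 (0.46), which also lost its call without 37 °C replicate C (0.56). Zfp426 was not called without heated replicate B (0.53), nor Zfp341 without heated replicate B or 37 °C replicate C (0.51 each). Zfp523, from 29.7 ± 1.63 to 17.1 ± 1.41 CPM (-0.80), and Zfp580, from 1.69 ± 0.22 to 0.987 ± 0.286 CPM (-0.77), were the lower DEGs. Zfp580 was called in 8 of 16 fits and lost its call without 37 °C replicate A (-0.67), B (-0.87) or C (-0.76) and without heated replicate A (-0.73) or B (-0.61), as well as with all 4 controls (-0.81).

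Outside these lists, the largest rise among genes with a symbol and at least 5 CPM was in Filip1l (ENSCGRG00001003026), at 21.9, 21.7 and 26 CPM in the controls and 50.3, 62.7, 62 and 64.7 CPM after 6 h. All heated libraries lay well above the controls, at a log2 change of 1.38 (SE 0.09, adjusted p = 3.80e-08), and its difference was 1.09 from 40 °C, 1 h and -0.45, under the fold, from 42.5 °C, 1 h, where its mean was 81.9 CPM. Aim2 (ENSCGRG00001014376), a sensor of cytosolic DNA, was at 58.3, 60.3 and 65.4 CPM and then 102, 133, 114 and 113 CPM, without overlap, with 0.92. Tada2a, a subunit of histone acetyltransferase complexes, rose from 14.1 ± 1.04 to 28.9 ± 4.91 CPM (1.03), Gprasp1 from 25.7 ± 0.68 to 48.2 ± 8.43 CPM (0.91) and Swt1 from 11.4 ± 0.586 to 22.7 ± 1.53 CPM (0.99). In addition Myh7b (1.08), Sprr1a (1.07), Cep295nl (1.01), Dqx1 (0.98) and Syt11 (0.97) rose, of which Dqx1 was not called with all 4 controls (0.87). Among the falls, Arhgap25 (ENSCGRG00001014196), which inactivates Rac, was at 51.8, 41.8 and 57.3 CPM in the controls and 22.3, 23.8, 32 and 21.8 CPM after 6 h. Its groups did not overlap, with a log2 fold change of -1.01 and differences of -1.03 from 40 °C, 1 h and -1.20 from 42.5 °C, 1 h. Nxpe4 (-1.11), the ubiquitin ligase gene Herc3 (-1.09) and Hps1 (-0.99), a gene of lysosome-related organelles, fell as well.

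Lists of ribosomal, proteasome, cell cycle, nucleolar, autophagy and BCL2 family genes held 0 DEGs by edgeR and by DESeq2. By adjusted p alone, cytosolic ribosomal proteins (32 tested) had 1 higher and 3 lower, mitochondrial ribosomal proteins (70) had 6 and 5, and the proteasome (40) had 0 and 4. At an unadjusted p under 0.05 these counts were 2 and 5, 10 and 10, and 2 and 7. Genes of DNA replication (41) had 6 higher and 7 lower by adjusted p alone, those of G2 and mitosis (36) had 6 and 3, and those of nucleolar ribosome biogenesis (33) had 0 and 10, with medians of 0.01, 0.06 and -0.07. Their counts at an unadjusted p under 0.05 were 8 and 9, 9 and 4, and 0 and 11, and with all 4 controls 1 gene of nucleolar ribosome biogenesis was called lower. Autophagy and lysosome genes (33) had 2 higher and 5 lower by adjusted p alone and 4 and 7 at an unadjusted p under 0.05. The BCL2 family (11) had 1 and 0, and 1 and 3, and 1 member was called higher without heated replicate A, without 37 °C replicate B or C or with all 4 controls, and 1 lower without 37 °C replicate C. None of the 7 replication-dependent histone genes found passed the filter on low counts.

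Fibroblast-like markers summed to 4592 ± 187 CPM at 37 °C (SD, n = 3) and 4214 ± 212 CPM after 6 h (SD, n = 4), led by Vim at a mean of 2232 CPM in the controls, although Thy1 was at 0 and Col1a1 at no more than 2 counts. Of these, 7 were tested and 0 called by edgeR and DESeq2, with 0 higher and 2 lower by adjusted p alone and the same counts at an unadjusted p under 0.05. By name, 9 of 10 fibroblast-like, 5 of 10 blood and 6 of 8 epithelial markers had an entry in the counts, and the others could not be looked up. Among the 5 blood markers found 3 were at 0 counts, Ptprc included, and the highest held 1 count. Endothelial markers summed to 0.608 ± 0.363 and 0.611 ± 0.372 CPM, with Kdr and Cldn5 at 0, and epithelial markers to 3.7 ± 1.24 and 3.9 ± 0.358 CPM, with Krt14, Krt19 and Cldn4 at 0. The 2 tested epithelial markers moved apart, Krt5 from a mean of 0.789 to 1.45 CPM and Cdh1 from 2.91 to 2.4 CPM, and 0 were called. However, 1 was called higher without a filter, with at least 10 counts in every library, in 1 fit over all groups and without heated replicate C. The 8 ovarian granulosa and theca markers summed to 8.91 ± 1.25 CPM in the controls and 14.1 ± 2.37 CPM after 6 h, with Foxl2, Fshr, Lhcgr and Cyp19a1 at 0. Amh had a mean of 3.06 CPM in the controls and 4.84 CPM after 6 h, and Inha 1.48 and 1.97 CPM, and neither was called. Of the 3 tested 1 was called higher (33.3%, against 3.11% of all genes tested), and 2 without heated replicate D or 37 °C replicate A. Star, which carries cholesterol into mitochondria for steroid synthesis, was at 4.77, 4.31 and 3.88 CPM in the controls and 6.36, 8.08, 8.05 and 6.86 CPM after 6 h. The groups did not overlap, at a log2 change of 0.75 (SE 0.14, adjusted p = 9.40e-04).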

How the data were processed

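RNA of CHO cells was sequenced from TruSeq libraries on an Illumina NextSeq, and the authors mapped the reads to the Chinese hamster genome CHOK1GS_HDv1 and counted them per gene in CLC Genomics Workbench. The deposited values are raw counts, whole numbers without normalization, for 20824 genes, of which 4423 are listed by identifier only and 22 under names turned into dates. How reads with several mapping places and strand were counted is not given in the sources used here, so near-identical paralogs such as those of the HSP70 family are uncertain. Library totals and the floor of 3 counts are given in the report.

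Each comparison was fitted on its own 2 groups by the quasi-likelihood test of edgeR 4.0.16 (R 4.3.3), after filterByExpr and TMM, and p-values were adjusted over all genes tested. DEGs passed an adjusted p of 0.05 and a change of at least 1.5-fold. The test was tested on simulated data with the same dispersion for all genes, where the changed genes were above 5 CPM and changed by more than 1.5-fold. It recovered 200 of 200 changed genes with 0 false calls. The simulation did not cover changes in genes under 5 CPM or folds close to the threshold. Alternatives were size factors from DESeq2, its Wald test (version 1.42.0), omitting the filter, requiring at least 10 counts in every library, adding the omitted control, fitting all groups at once, blocking on the replicate letter, dropping the fold threshold, glmTreat, and leaving out each library.

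Genes were named if they were among the 15 largest rises or falls with a symbol, at least 5 CPM in the higher group and no overlap between groups, among the 6 called members of smallest adjusted p per direction in each of 52 gene lists, or fixed by name. The members and lists were chosen with earlier results of these data known. Symbols were taken from the counts only, matched without regard to case.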

Additional observations from a re-analysis of the deposited data

Results flagged for a closer look

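Among named genes, single heated libraries stood apart from the other 3 of the 40 °C, 6 h group by Dixon's test. These were replicate B for ENSCGRG00001001109 at 27.2 CPM, Syt11 at 6.57 CPM and Pygm at 5.07 CPM, replicate D for Aen at 36.7 CPM and Zfand1 at 14.6 CPM, replicate A for Phlda1 at 13.7 CPM and replicate C for Zfp94 at 5.76 CPM. Replicate A also had the lowest total, 11153350 counts. Of 105 quantities tested in this way 8 stood out, and at the 0.05 level of the test chance alone gives about 5%.

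Several named genes differed between 6 h and 1 h at 40 °C by the direct test, given here as log2 differences. The 6 h group was higher in Filip1l (1.09), Hspa5 (0.93), Myh7b (0.93), Sprr1a (0.88), Pdia4 (0.86), Aox1 (0.81), Cxcl12 (0.80), Zfp423 (0.78), ENSCGRG00001010711 (0.76), Dqx1 (0.71), Tada2a (0.68), Pygm (0.67), Aim2 (0.65) and Hsp90b1 (0.60). It was lower in Egr3 (-1.42), Ccl2 (-1.40), Ccr7 (-1.38), Ccl7 (-1.33), Nxpe4 (-1.12), Lif (-1.10), Hnrnpdl (-1.05), Egr1 (-1.04), Arhgap25 (-1.03), Dusp5 (-0.97), Dnajb1 (-0.97), Etv5 (-0.95), Herc3 (-0.94), Pspc1 (-0.81), Maff (-0.75), Hps1 (-0.71), Rbm3 (-0.69), Slc7a11 (-0.68), Ier2 (-0.67), Nab2 (-0.66), Phlda1 (-0.65), Vcam1 (-0.64), ENSCGRG00001011428 (-0.64), Aen (-0.62), ENSCGRG00001016131 (-0.62), Clk1 (-0.62) and Icam1 (-0.59).

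Compared with 42.5 °C, 1 h in the same way, the 6 h group was higher in Cxcl1 (2.24), Myh7b (1.41), Adm (1.11), Plcd3 (1.10), Cxcl12 (0.98), Tada2a (0.88), Pygm (0.85), Hspa5 (0.83), Zfp341 (0.82), Zfp94 (0.82), Zfp423 (0.81), Pdia4 (0.79), Manf (0.76), Dbp (0.70), Scd2 (0.61), Xbp1 (0.61), Smpd3 (0.60) and Sdf2l1 (0.59). It was lower in ENSCGRG00001001109 (-6.66), Egr1 (-3.61), Egr2 (-3.35), Dnajb1 (-3.14), Egr3 (-2.09), Atf3 (-2.08), Hsph1 (-1.74), Bhlhe40 (-1.67), Hspb1 (-1.44), Ccl2 (-1.43), Ccl7 (-1.43), Phlda1 (-1.24), Arhgap25 (-1.20), Hnrnpdl (-1.07), Herc3 (-1.05), Etv5 (-1.02), Clk1 (-1.01), Vcam1 (-1.01), Maff (-0.96), Pspc1 (-0.89), Slc7a11 (-0.89), Atf4 (-0.82), Ankrd1 (-0.79), Sesn2 (-0.78), Zfand1 (-0.77), Dnajc30 (-0.77), Dusp5 (-0.71), Rbm3 (-0.70), Aox1 (-0.67), ENSCGRG00001016131 (-0.63), Slc6a9 (-0.61), Swt1 (-0.60), Hps1 (-0.59) and Acsl6 (-0.59). These comparisons share the 6 h libraries.

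The library left out, 37 °C replicate D, lay beyond the other 3 controls on the side of the heated libraries for 188 of the 326 DEGs (57.7%), and on the opposite side for 47 (14.4%). Over all genes tested the shares were 47.2% and 36.6%, and the DEGs were called against the other 3 controls. The cause was not tested.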

How the results depend on the processing

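The 326 DEGs against 37 °C became 248 to 388 with 1 library left out, the 134 against 40 °C, 1 h became 101 to 175, and the 860 against 42.5 °C, 1 h became 810 to 922. By adjusted p alone the counts were 3091, 1931 and 4904, and by glmTreat 31, 8 and 260, since these thresholds are looser and stricter. The other settings stayed within 1.5 times each count. With the replicate letter as a block the counts were 333, 138 and 858. Pairing by letter rests on the labels only, and after subtracting group means libraries with the same letter correlated with a mean r of 0.03 over 3 pairs, against -0.01 over 9 other pairs (across genes). None of the 95 named DEGs changed direction in the settings that tested it, whereas Ern1, not called, lay between -0.03 and 0.23. Of the 95 named DEGs, 25 of 94 lost their call with all 4 controls, 19 without heated replicate B, 10 by the Wald test of DESeq2 and 6 with the block. The cause was not tested. Genes under 5 CPM rest on few counts, which limits their precision.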
